A study of Arabidopsis thaliana with 6 samples.

Results

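The sucrose-clade SWEET genes are the 7 loci that encode SWEET9 to SWEET15 (AT2G39060, AT5G50790, AT3G48740, AT5G23660, AT5G50800, AT4G25010 and AT5G13170), sorted into this clade by locus and not by any measured value. The members were nonetheless chosen with earlier results of these data known. A probe set, the group of short oligonucleotides that reports 1 transcript on the array, was annotated to a single gene for 6 of the 7, out of 13286 loci with such a probe set. SWEET12 (AT5G23660) had none and is not analysed here. Each of the other 6 had exactly 1 such probe set. Roots of wild type (ecotype Col) and of spy-3, a mutant labelled with the same ecotype, were collected at 7 d from seedlings grown on vertical MS plates in long days, and each genotype was measured on 3 Affymetrix ATH1 arrays. SPY is a protein glycosyltransferase known as a brake on gibberellin signaling, and spy-3 is the only allele on these arrays. The sugar content of the medium is not stated in the labels or the methods. The methods call the 3 arrays of a genotype biological replicates, without saying whether they came from separate sowings or harvests.

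SWEET proteins are membrane carriers that let sugars move down their concentration gradient, out of a cell or into it. The sucrose clade sits mainly in the plasma membrane and releases sucrose to the cell wall space, from which proton-coupled symporters can take it up again. In leaves SWEET11 and SWEET12 act together in phloem parenchyma at the start of phloem loading. SWEET9 serves nectar secretion, SWEET11, SWEET12 and SWEET15 feed the embryo in seeds, and SWEET13 and SWEET14 can also carry gibberellin and act in anthers. SWEET15 is also known as SAG29, a gene that rises in senescing leaves, and SWEET10 rises at the shoot apex at flowering.

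The 2 genes of the clade that passed the limma test were both higher in spy-3 roots. SWEET11 rose 1.79-fold (95% interval 1.57-fold to 2.04-fold) and SWEET14 rose 1.82-fold (1.44-fold to 2.31-fold), with n = 3 arrays for each genotype. In RNA of whole roots, more cells of a type and more RNA per cell cannot be told apart. SWEET13 was measured at a middling signal and did not pass the test, and SWEET9, SWEET10 and SWEET15 were near the bottom of the array in both genotypes. At an adjusted p of 0.05 from limma, 2 of the 6 measured members were thus higher and 0 were lower, where 2.64% of all 22746 probe sets were higher and 3.13% were lower. Without the adjustment, at a p of 0.05, limma and a one-way analysis of variance each had the same counts, 2 higher and 0 lower, where 9.85% and 8.69% of all probe sets were higher and 9.34% and 8.36% lower. After adjustment the analysis of variance had 1 higher and 0 lower, where 1.26% and 1.63% of all probe sets were higher and lower. SWEET14 did not pass there (analysis of variance, adjusted p = 0.0784). The median log2 fold change was 0.40 over the 6 members and 0.02 over all probe sets, but the estimates of the 3 dim members are loose.

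**Figure D1:**
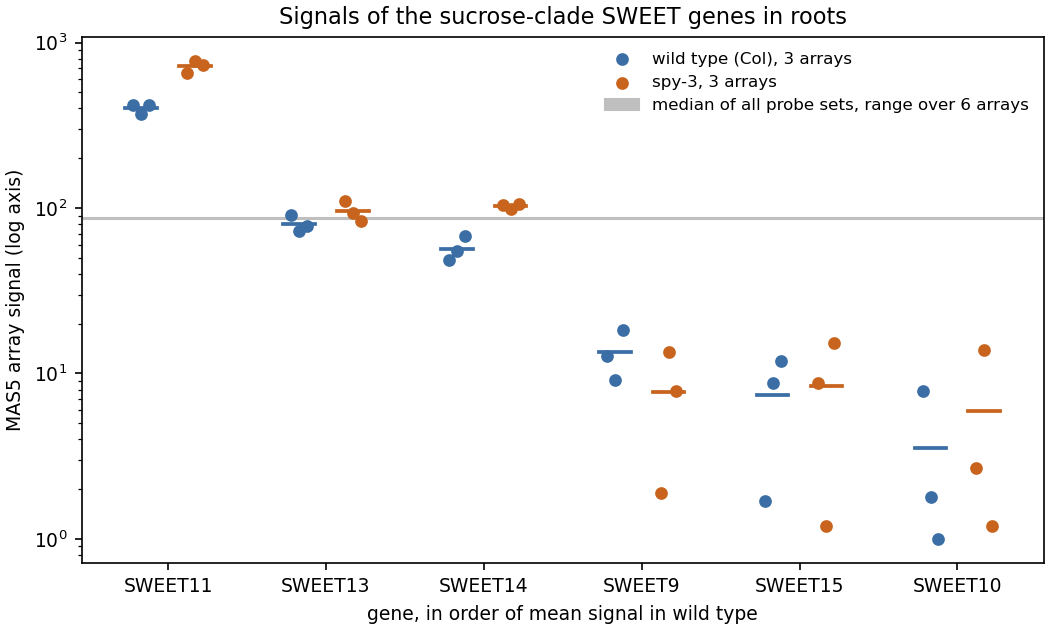
The MAS5 array signal (vertical log axis) of the 6 measured genes in each of 3 wild type (blue) and 3 spy-3 (orange) arrays, with a line at each mean and a grey band at the arrays' median signal. SWEET11 lies far above the band in all 6 arrays, SWEET14 crosses it between the genotypes, and SWEET9, SWEET15 and SWEET10 lie far below it with scattered points.

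SWEET11, the leaf phloem-loading carrier, was the brightest of the 6. Its signal was 420.4, 371.1 and 419.2 in wild type replicates 1 to 3 and 658.1, 778.0 and 728.7 in those of spy-3. The lowest spy-3 array was thus well above the highest wild type array, and SWEET11 was above the array's median signal on all 6. In wild type it was brighter than 79.4% to 81.7% of all probe sets, and in spy-3 than 88.0% to 89.9%. Means were 403.6 ± 28.1 against 721.6 ± 60.3 (SD over n = 3 arrays each), and log2 signals differed by 0.84 with a standard error of 0.08 (limma, adjusted p = 0.00313). The call did not depend on any single array. With each of the 6 left out in turn the log2 fold change was 0.78 to 0.90 and the adjusted p from limma 0.00847 to 0.0265. In limma, SWEET11 was also the only member past 1.5-fold with an adjusted p under 0.01, which 0.435% of all probe sets passed in this direction. The study set its cut-offs at these values, but its methods name an analysis of variance. By the one-way analysis of variance run here, the adjusted p of SWEET11 was 0.0393, which is above 0.01. SWEET11 and SWEET12 are close paralogs. Whether RNA of SWEET12 binds the SWEET11 probes was not tested, because probe sequences were not used here. The same holds for RNA of SWEET13 on the SWEET14 probes and the reverse.

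SWEET14, one of the pair that also carries gibberellin, rose from a lower level. Signals were 48.6, 54.7 and 67.5 in wild type and 103.7, 99.2 and 105.8 in spy-3. All 3 wild type arrays had SWEET14 below the median signal of the array and all 3 spy-3 arrays had it above. The means were 56.9 ± 9.7 against 102.9 ± 3.4 (SD over n = 3 arrays each), and log2 signals differed by 0.87 with a standard error of 0.14 (limma, adjusted p = 0.0205). This call had a higher adjusted p than that of SWEET11. It held without wild type replicate 3 (adjusted p = 0.0202 from limma), but it did not pass when wild type replicate 1 or 2, or spy-3 replicate 1, 2 or 3, was left out (adjusted p = 0.0635, 0.0891, 0.0734, 0.0766 and 0.0909 from limma), nor by the one-way analysis of variance (adjusted p = 0.0784), the sort of test named in the methods. The log2 fold change stayed between 0.76 and 1.00 in those omissions. It was 0.47 when 64 was added to every signal before taking log2, an offset that shrinks the change of dim genes (adjusted p = 0.00857).

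**Figure D2:**
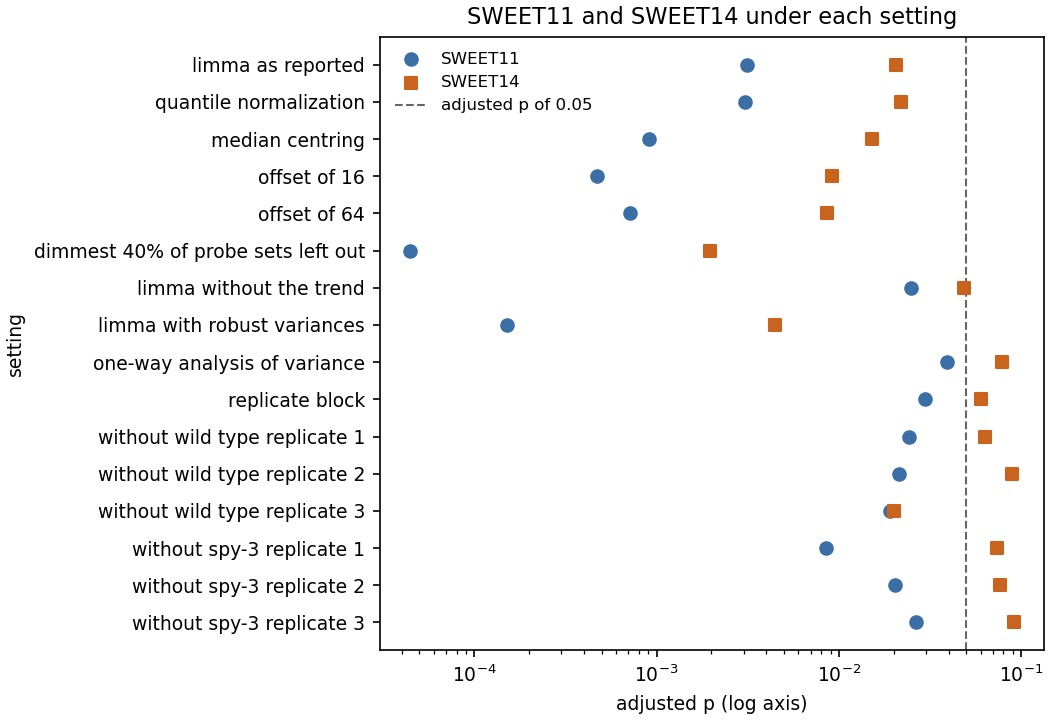
Adjusted p (horizontal log axis) of SWEET11 (blue circles) and SWEET14 (orange squares) in the reported limma comparison and in each of 15 other settings, with a dashed line at 0.05. SWEET11 stays left of the line throughout, with 0.0393 as its highest value, and SWEET14 lies right of it in 7 of the 15.

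SWEET13, the other gibberellin-carrying member and the nearest relative of SWEET14, had signals of 90.9, 72.5 and 77.6 in wild type and 110.6, 93.0 and 83.3 in spy-3. The genotypes overlapped, since 1 wild type array was brighter than 1 spy-3 array. The means were 80.3 ± 9.5 against 95.6 ± 13.8 (SD over n = 3 arrays each), and the log2 fold change of 0.25 had a 95% interval of -0.10 to 0.60 (adjusted p = 0.427 from limma). The interval reaches a rise of 1.51-fold, so these arrays do not show that SWEET13 stayed level. The change was also set against those of its relatives within each array, in ratios chosen after the values had been seen. The ratio of the SWEET14 to the SWEET13 signal was 0.535, 0.755 and 0.870 in wild type and 0.938, 1.07 and 1.27 in spy-3. The ratio of SWEET11 to SWEET13 was 4.63, 5.12 and 5.40 in wild type and 5.95, 8.37 and 8.75 in spy-3. Both ratios were separate between the genotypes, with a two-sided exact permutation p of 0.10, the smallest that 3 arrays against 3 allow. After adjustment over the 7 ratios computed it was 0.117, but those over SWEET16 and SWEET17 had to be separate. SWEET11 and SWEET14 were themselves separate and the pairs were picked with the values known, so these p-values do not test the ratios. The ratio of SWEET14 to SWEET11 overlapped between genotypes (0.116 to 0.161 in wild type and 0.128 to 0.158 in spy-3, exact permutation p = 1.0), and its mean differed by 0.03 on the log2 scale.

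The other 3 members were dim. SWEET9, the nectary carrier, had signals of 12.7, 9.1 and 18.4 in wild type and 1.9, 13.5 and 7.8 in spy-3. SWEET15, the senescence and seed gene, had 1.7, 8.7 and 11.9 against 8.8, 1.2 and 15.2. SWEET10, the gene of the flowering shoot apex, had 7.8, 1.8 and 1.0 against 2.7, 13.8 and 1.2. All of these signals lie below the median of their array, and the genotypes overlap for each of the 3 genes. In wild type the 3 genes ranked between 4.8% and 28.9% of the probe sets of an array, and in spy-3 between 6.0% and 26.9%. Their log2 fold changes were -1.14 (95% interval -2.99 to 0.72) for SWEET9, -0.04 (-2.86 to 2.77) for SWEET15 and 0.56 (-2.17 to 3.28) for SWEET10, with adjusted p of 0.501, 0.994 and 0.848 from limma. These intervals are wide enough to hold several-fold changes in either direction or, for SWEET9, a several-fold fall, so the arrays do not measure a genotype difference in these genes. Detection calls were not used, and no statement on the presence of these transcripts in roots is made. As a gauge of such levels, the anther regulator AMS, the only measured gene of 15 listed for seeds and anthers, was at 10.4 ± 10.7 against 1.2 ± 0.5 (SD over n = 3 arrays each), also below the median on all 6 arrays. Its wild type signals were 22.4, 1.9 and 6.9, and every spy-3 array was below them, as for 11.5% of all probe sets. The log2 difference of AMS was -2.35 (95% interval -4.51 to -0.18, limma adjusted p = 0.225), so it gauges the level only.

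By mean signal in wild type the order was SWEET11, SWEET13, SWEET14, SWEET9, SWEET15 and SWEET10. A probe set's brightness depends on its own oligonucleotides as well as on the RNA, so this is an order of signals and not of transcript amounts. The range of SWEET11 was separate from that of SWEET13, and the range of SWEET14 from that of SWEET9. SWEET13 and SWEET14 were close but separate, with 72.5 as the lowest SWEET13 signal and 67.5 as the highest of SWEET14. The ranges of SWEET9 and SWEET15 overlapped, as did those of SWEET15 and SWEET10. In spy-3 the order was SWEET11, SWEET14, SWEET13, SWEET15, SWEET9 and SWEET10. SWEET14 and SWEET13 had changed places there, but their spy-3 ranges overlapped. SWEET13 was separate from SWEET15 there, and among the 3 dim genes neighbours overlapped. SWEET10 and SWEET13 are neighbours in the genome, with 0 protein-coding genes between them in the RefSeq annotation of TAIR10.1, and their signals lie far apart in both genotypes.

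All 10 SWEET genes of the other clades, which carry mainly hexoses or sit in the vacuolar membrane, were measured. Of these 0 were higher and 1 was lower in limma at an adjusted p of 0.05, with a median log2 fold change of -0.23. At an unadjusted p of 0.05, limma and the analysis of variance each had 1 higher and 3 lower of the 10, beside the shares of all probe sets given above for that level, and after adjustment the analysis of variance had 0 and 0, where 1.26% and 1.63% of all probe sets were higher and lower. The lower gene was SWEET16, a vacuolar sugar carrier, whose mean was 461.0 ± 74.2 in wild type against 252.9 ± 16.7 for spy-3 (SD over n = 3 arrays each). The log2 difference was -0.86 (limma, adjusted p = 0.0128). Its call was lost without wild type replicate 2 or spy-3 replicate 2 or 3 (adjusted p = 0.0752, 0.0712 and 0.069 from limma). Its vacuolar relative SWEET17, a fructose carrier, differed by -0.56 on that scale (limma, adjusted p = 0.0702) and the vacuolar SWEET2 by -0.35 (adjusted p = 0.101), and neither passed. Calls in this list changed with the processing, from 0 to 3 genes lower. SWEET17 passed in 5 of the 15 other settings, with an adjusted p of 0.00841 to 0.223 over all of them, and SWEET2 passed in 1, a limma comparison that dropped the dimmest 40% (adjusted p = 0.0452). All 3 had every spy-3 array below every wild type array, as did 11.5% of all probe sets. SWEET3 of the same list had the opposite order, with every spy-3 array above every wild type array (198.7 ± 0.96 against 244.4 ± 28.6, SD over n = 3 arrays each). Its log2 difference was 0.29 (limma, adjusted p = 0.135), and of those 15 settings it passed in 1, the omission of spy-3 replicate 1, where limma gave an adjusted p of 0.0323. In the sucrose clade, 2 of 6 members, SWEET11 and SWEET14, had every spy-3 array above every wild type array, which was so for 12.7% of all probe sets, and the other 4 overlapped. Within each array the SWEET11 signal was 0.798, 0.780 and 1.10 times that of SWEET16 in wild type and 2.42, 3.19 and 3.01 times in spy-3. The SWEET14 signal was 0.0923, 0.115 and 0.177 times that of SWEET16 in wild type and 0.381, 0.406 and 0.436 times in spy-3. Both ratios had to be separate between the genotypes, since their members were, and they are given as values only.

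**Figure D3:**
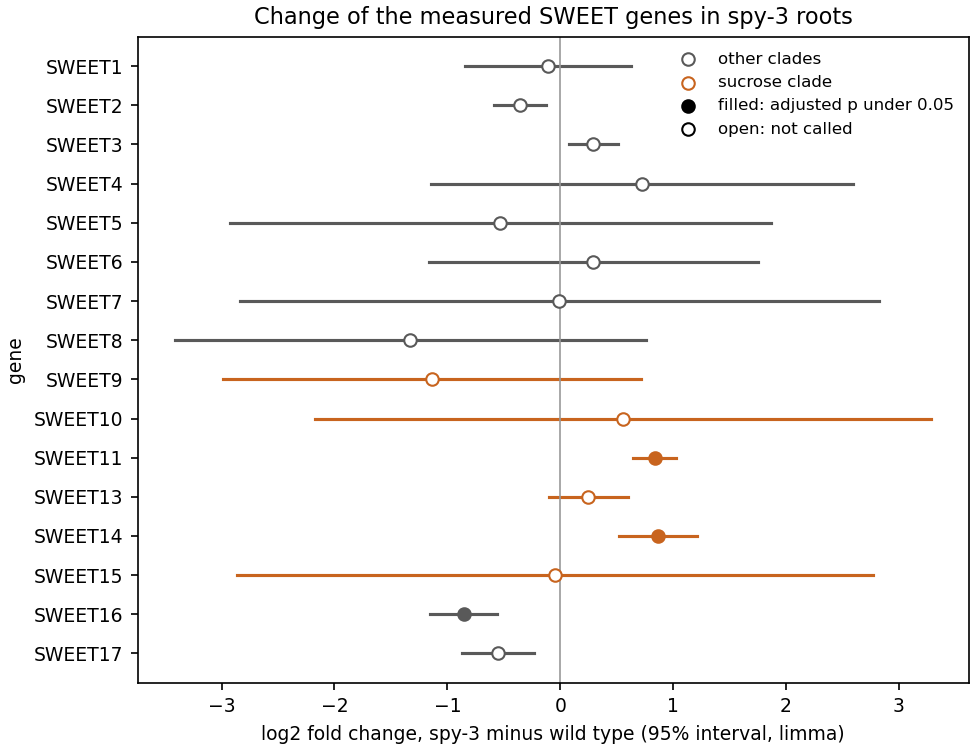
The log2 fold change of spy-3 against wild type (horizontal axis, with 95% intervals from limma) for the 6 measured sucrose-clade genes (orange) and the 10 SWEET genes of other clades (grey), filled where the adjusted p is under 0.05. SWEET11 and SWEET14 lie near 0.84 and 0.87, SWEET16 at -0.86, and the dim genes have intervals that span several units.

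Genes that handle sucrose around these carriers were mostly out of reach of the annotation. None of the 9 listed sucrose-proton symporters of the SUC family, which retrieve sucrose from the wall space, had a single-gene probe set. Of 45 listed genes of sucrose cleavage, sucrose synthesis and hexose uptake 9 were measured. Of these 1 was called, as lower, where limma called 3.13% of all probe sets lower. Of 23 invertases and sucrose synthases, which split sucrose, 2 were measured. The vacuolar invertase AT1G62660 fell from 4240 ± 123.6 to 3596 ± 162.2 (SD over n = 3 arrays each). The log2 difference was -0.24 (limma, adjusted p = 0.0443), and this call was lost with any 1 of the 6 arrays left out (adjusted p = 0.0745 to 0.165 from limma). The cell wall invertase gene CWINV6 differed by -0.12 (limma, adjusted p = 0.599). At an unadjusted p of 0.05, limma had 1 of the 2 lower and the analysis of variance had 2. In those tests 9.34% and 8.36% of all probe sets were lower. After adjustment the analysis of variance called 0 of the 2. Both genes had every spy-3 array below every wild type array, as did 11.5% of all probe sets. Of 8 genes that make sucrose, 3 were measured and none was called in limma or by the analysis of variance. Without the adjustment, 1 of the 3 passed a p of 0.05 by each test, as higher. Of all probe sets, 9.85% were higher at that level by limma and 8.69% by the analysis of variance. Among the 3 genes, the sucrose-phosphate phosphatase gene SPP2 had the lowest adjusted p (log2 difference 0.17, limma adjusted p = 0.147). It was followed by SPP3A (0.28, adjusted p = 0.483) and the sucrose-phosphate synthase gene SPSC (-0.37, adjusted p = 0.694). SPP2 had every spy-3 array above every wild type array, as did 12.7% of all probe sets, and the other 2 overlapped. Of 14 hexose symporters of the STP family, which import the sugars that invertases release, 4 were measured, at mean signals of 1.33 to 16.9 in wild type. None was called by either test, also without adjustment, and the lowest adjusted p values were those of STP8 (log2 difference -0.77, limma adjusted p = 0.332), STP5 (1.09, adjusted p = 0.614) and STP10 (-0.51, adjusted p = 0.668). STP8 had every spy-3 array below every wild type array, as did 11.5% of all probe sets, while STP5 and STP10 overlapped.

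Of the listed cell type markers few were measured. Only 2 of 18 listed phloem markers were measured, OPS and PEAR2, both below the median signal on all 6 arrays. Their summed signal was 20.6 to 34.7 in wild type and 26.4 to 47.2 in spy-3, and neither was called by limma or the analysis of variance, also without adjustment. PEAR2, a phloem transcription factor gene, had 5.7, 8.9 and 9.0 in wild type and 10.7, 11.1 and 22.1 in spy-3. All of its spy-3 arrays were thus above those of wild type, as were those of 12.7% of all probe sets, while OPS overlapped. The log2 difference of PEAR2 was 0.84 (95% interval -0.20 to 1.88, limma adjusted p = 0.36). The defining phloem genes APL and SUC2 are not analysed here, so the share of phloem in the higher SWEET11 and SWEET14 signals was not tested. Of 15 markers of green tissue, where SWEET11 is strong, 3 were measured, with a summed signal of 436.5 to 478.6 in wild type and 293.5 to 326.6 in spy-3. Most of this sum was RCA alone, at 419.0 to 436.9 in wild type and 271.8 to 301.3 in spy-3. Rubisco activase (RCA) fell, with a log2 difference of -0.57 (limma, adjusted p = 0.0027), where limma called 3.13% of all probe sets lower. PRK and SBPASE had wild type means of 6.6 ± 1.9 and 23.4 ± 10.3 (SD, n = 3) and did not pass. The share of green tissue in the SWEET11 signal was not tested. Of 17 root markers only the root hair expansin EXPA7 was measured, at 941.1 ± 26.6 in wild type against 695.4 ± 21.2 for spy-3 (SD over n = 3 arrays each). It fell, with a log2 difference of -0.44 (limma, adjusted p = 0.00274), beside the same 3.13% of all probe sets called lower.

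Senescence and abscisic acid genes were set beside the clade because SWEET15 answers to both in leaves and under osmotic stress. Of 11 senescence genes 3 were measured, and 2 rose in spy-3, where limma called 2.64% of all probe sets higher. They were the transcription factor genes WRKY53 and WRKY6 (log2 differences 0.77 and 0.55, limma adjusted p = 0.00382 and 0.0056), while SAG101 did not pass (-0.26, adjusted p = 0.558). SWEET15 was at 7.4 ± 5.2 in wild type against 8.4 ± 7.0 for spy-3 (SD over n = 3 arrays each). Of 24 genes induced by abscisic acid 4 were measured, and none was called by limma or the analysis of variance, also without adjustment. The brightest, COR47, was at 6898 ± 508.7 in wild type against 6614 ± 314.1 for spy-3 (SD over n = 3 arrays each). The log2 difference of COR47 was -0.06 (limma, adjusted p = 0.713). Those of COR15A, COR15B and LTI30 were 1.37, 0.61 and 0.12 (limma, adjusted p = 0.347, 0.42 and 0.283). COR15A and COR15B were below the median signal on all 6 arrays. COR15B and LTI30 had every spy-3 array above every wild type array, as did 12.7% of all probe sets.

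The genes whose signals followed SWEET11 most closely were AT5G50370, XTH18 and AT3G24080, with Pearson coefficients of 0.996, 0.996 and 0.995 across the 6 arrays on the log2 scale, among 5962 other genes with a mean signal above 86.95, the median over probe sets. Of these genes 160 had a coefficient above 0.95, so such values over 6 arrays in 2 genotypes do not single out the 3 named. XTH18, which belongs to the cell wall-modifying xyloglucan endotransglucosylases, was at 900.4 ± 19.7 in wild type against 1308 ± 47.0 for spy-3 (SD over n = 3 arrays each). For SWEET13 the closest were AT1G36310, UGT74D1 and AT3G04010 (0.983, 0.980 and 0.974), with 8 genes above 0.95. SWEET14 and the dim members had mean signals below that median and were not compared in this way.

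Across all probe sets the arrays were alike. Their median signals lay between 85.4 and 87.2, and between 4.48% and 6.21% of each array's signals were under 1. Arrays of 1 genotype correlated with coefficients of 0.958 to 0.966 and arrays of different genotypes with 0.952 to 0.963. SPY itself had signals of 258.2, 251.7 and 292.3 in wild type and 244.9, 316.7 and 294.4 in spy-3 (log2 difference 0.09, limma adjusted p = 0.728), which does not check the genotype labels, since a mutant allele may keep its transcript.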

How the data were processed

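The authors hybridised root RNA to 6 ATH1 arrays and deposited 1 intensity signal per probe set and array on a linear scale, made with MAS5 according to the submitters' processing notes. For MAS5, no version or setting is named there. The deposited arrays share 1 trimmed mean, so array brightness carries no information, and precision is limited by having 6 arrays. Signals were floored at 1 and log2 was taken, with no further normalization and no filter. spy-3 was compared with wild type in limma 3.58.1 under R 4.3.3 (lmFit, then trended eBayes), and p-values were adjusted by Benjamini-Hochberg across the 22746 probe sets. Intervals are 95% limma intervals, and fold changes are 2 to the power of the log2 difference. Tables were made with Python 3.11.15 and pandas 2.3.3. The fit was also run on simulated arrays drawn from its own fitted variances, which cannot check whether those variances suit these data.

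Of 13513 probe sets annotated to 1 gene, 13436 matched a locus of TAIR10.1, a RefSeq table used only for names and gene order. The brightest probe set by mean signal over the 6 arrays stood for its gene. Members and gene lists were chosen with earlier results of these data known. Genes named are all measured members, every called gene of the sugar lists and otherwise up to 3 of lowest adjusted p in each, up to 4 called genes of the marker, senescence and abscisic acid lists, and the 3 most alike genes. SWEET2, SWEET3, SWEET17, CWINV6, AMS, OPS, PEAR2, PRK, SBPASE, SAG101, COR47, COR15A, COR15B and LTI30 were added after their values were seen. Same-numbered arrays did not deviate together in every pair (correlations of 0.178, -0.149 and 0.182 among brighter probe sets), so the numbers were not taken as pairs. No sequences are printed, because none were at hand for these genes.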

Additional observations from a re-analysis of the deposited data

How the results depend on the processing

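The alternatives were quantile normalization, median centring, offsets of 16 and 64, robust or untrended variances in limma, a one-way analysis of variance, a filter on the dimmest 40% of probe sets, the replicate number as a block, stricter thresholds, and leaving out each array. SWEET11 was called in all 15 settings run on it, with log2 fold changes of 0.75 to 0.90. The number of members higher in spy-3 was 2 in the reported comparison, 1 by the analysis of variance, 1 with the replicate block, 1 past 1.5-fold with an adjusted p of 0.01, and 1 to 2 with single arrays left out, and 0 were lower in every setting. SWEET14 kept its direction but was not called at 0.87 by the analysis of variance or with the replicate block (adjusted p = 0.0784 and 0.0606), and gave 0.76 to 1.00 with single arrays left out. The cause was not tested. The replicate block changed no other call among the 6 members. The dim members SWEET15 and SWEET10 changed sign without being called: the log2 fold change of SWEET15 was 0.042 with an offset of 16, 0.017 with 64 and -0.91 to 1.05 with arrays left out, and that of SWEET10 was -0.42 to 1.40 in the latter. The order of the 6 in wild type was the same after quantile normalization for all 6 places. No member has a second probe set annotated to it alone, so that alternative was not run, and the dim members have no value where the dimmest 40% were left out. Over all probe sets 1312 were called, against 642 without the trend, 658 by the analysis of variance, 656 with the block, 515 to 869 with single arrays left out, 1323 after quantile normalization, 1392 after median centring, 1499 and 1474 with offsets of 16 and 64, 1549 with robust variances, and 1852 of 13646 with the dimmest 40% left out.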
